A study of Mus musculus with 37 samples.

Results

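Very wide peaks of open chromatin were examined in mouse oocytes at the germinal vesicle (GV) stage. A peak was taken when its width was at least 3000 bp and at least 1 of the 5 other libraries had no peak overlapping it by 1 bp or more. By this rule 2971 of 316630 peaks were chosen, or 0.938%. Another 920 peaks of at least 3000 bp overlapped a peak in every other library and were left out. The peaks were chosen by their measured width and their presence in the other libraries, so widths, numbers and sharing are described with no test.

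ATAC-seq uses a transposase that inserts adapters where DNA is accessible, and a peak is a stretch where fragments pile up above background. Narrow peaks usually mark promoters and enhancers, whereas a long peak means that raised accessibility extended over several nucleosomes without a gap that the peak caller could resolve. Fully grown GV oocytes are arrested in meiotic prophase and are largely silent in transcription. CABIN1 is a subunit of the HIRA histone chaperone complex, which deposits the histone variant H3.3 outside DNA replication.

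The ATAC-seq data came from CabZ mice on a C57BL/6 background, in which a floxed Cabin1 allele lost exon 6 through Zp3-Cre, a Cre driver active in growing oocytes. There were 3 Het libraries (A, B and C) and 3 KO libraries (A, B and C), each from a pool of about 100 fully grown GV oocytes collected from females given PMSG. The Het controls carried Zp3-Cre and 1 floxed allele and were littermates, and the labels give the KO ATAC-seq samples simply as KO. RNA-seq of CabZ GV oocytes (4 Het and 4 KO libraries) was read beside the peaks. Ages of the females were not given in the sources used here. Because every library was a pool, p-values measure the spread between pools.

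Oocyte identity was checked in the RNA. The 6 oocyte markers had mean levels of 24.1 to 1222 FPKM (fragments per kilobase of gene span, scaled to the library's total), with summed levels of 2215 to 3172 FPKM in Het and 2243 to 2362 FPKM in KO. All 6 cumulus and granulosa cell markers in the table had means under 1 FPKM, and their summed level was 0.692 to 1.07 FPKM in Het and 0.914 to 1.42 FPKM in KO. Cabin1 itself stood at 0.119 ± 0.031 FPKM (SD, n = 4) in Het and 0.0242 ± 0.0167 FPKM (SD, n = 4) in KO, with no overlap between the groups. Its level lay below the filter of 1 FPKM, so it was not tested. The ATAC-seq pools were separate samples and could not be checked in this way.

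Wide peaks were very unevenly spread over the 6 libraries. Het A had 59, Het B had 605 and Het C had 2002, whereas KO A had 290, KO B had 3 and KO C had 12. Het C alone therefore held 67.4% of them, Het B 20.4%, KO A 9.76% and Het A 1.99%. The genotypes overlapped in this count, because KO A had more wide peaks than Het A. Without Het C, 662 wide peaks were left in Het by the same rule, in place of 2666, and without KO A, 14 were left in KO, in place of 305.

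The order of the libraries by wide peaks was their order by peaks of any width. The libraries held 43399, 67074 and 111327 peaks in Het A, B and C and 46070, 19160 and 29600 peaks in KO A, B and C. Their read totals are unknown from these files. The genome-wide background pileup that the peak caller used could be recovered from the steps of the fold column. It was 1.54, 1.75 and 2.41 in Het A, B and C and 1.14, 1.22 and 1.03 in KO A, B and C. Every Het library stood above every KO library in background pileup, so depth and genotype cannot be told apart in any count of wide peaks. Pileup did not order the counts, since KO A had more wide peaks than Het A or KO B at a lower pileup.

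**Figure D1:**
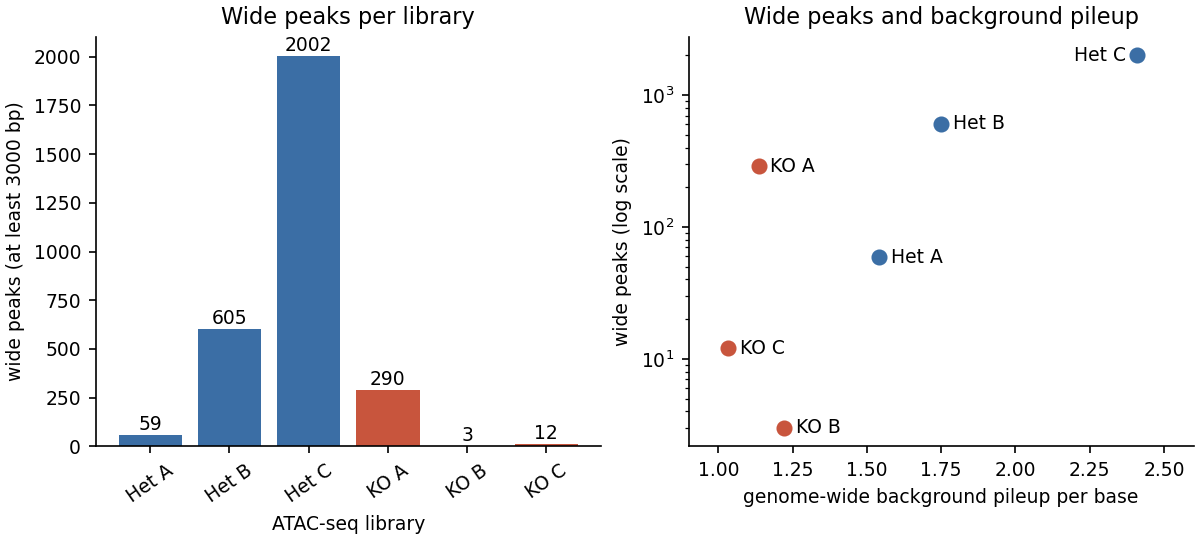
Left, bars give the number of wide peaks (at least 3000 bp, lacking a peak in at least 1 other library) in each of the 3 Het (blue) and 3 KO (red) ATAC-seq libraries. Right, each point is a library, with the genome-wide background pileup per base on the x axis and the number of wide peaks on a log y axis. Het C holds 2002 wide peaks at the highest pileup of 2.41, while KO A holds 290 at a pileup of 1.14.

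The unevenness was still there when each library was cut to its 19160 most significant peaks, the size of the smallest library. The counts were then 66, 594 and 1623 in Het A, B and C and 333, 5 and 18 in KO A, B and C. Widths stayed as called in the whole library. Wide peaks were also more significant than narrower ones, with a median −log10 q of 5.76 against 2.77 in Het C. The cut therefore cannot separate the counts from depth. Wide peaks made up 1.80% of all peaks in Het C, 0.902% in Het B, 0.629% in KO A, 0.136% in Het A, 0.0405% in KO C and 0.0157% in KO B. In sequence covered, they took 6.65% of all peak bases in Het C, 3.29% in Het B and 2.38% in KO A, and under 1% in the other libraries.

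Most wide peaks were only a little longer than the minimum. Their median width was 3490 bp over all libraries, 76.0% were under 4000 bp, and 201 were at least 5 kb, of which 167 came from Het C. Median widths per library lay between 3345 bp in KO B and 3550 bp in Het C. The longest single peak, 9872 bp, was in Het C, and the longest in KO was 6674 bp in KO A. At the threshold, 385 wide peaks measured 3000 to 3099 bp, and 433 peaks that met the other condition lay just outside it, up to 100 bp short of the minimum. Their median fold enrichments were 4.73 and 4.98.

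**Figure D2:**
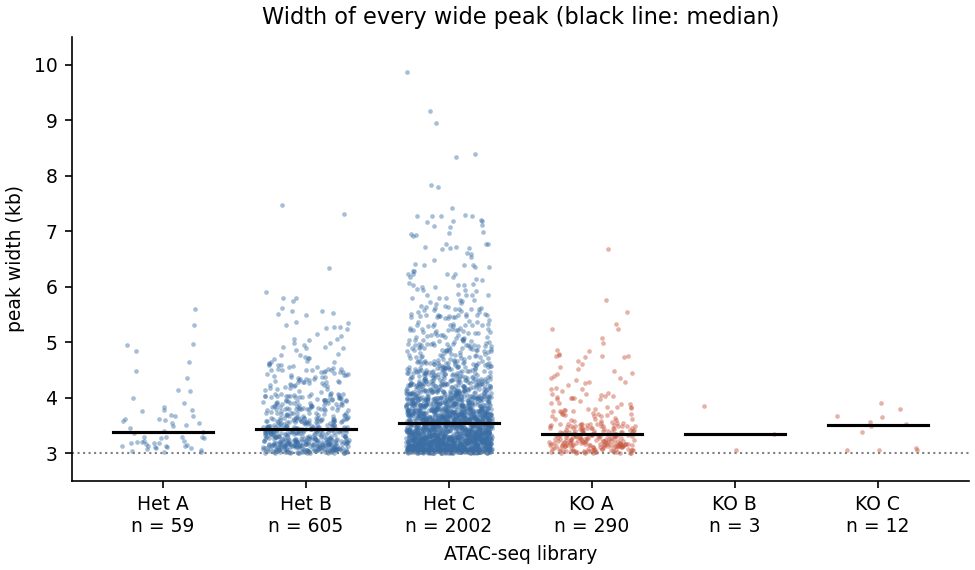
Each point is a wide peak, with its width in kb on the y axis and its library on the x axis. The black lines are medians and the dotted line is the minimum of 3 kb. Medians lie between 3345 and 3550 bp, and only Het C reaches 9872 bp.

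By median fold in each library, the wide peaks were higher than narrower peaks and lower than peaks of at least 3000 bp found in all 6 libraries. The median fold enrichment of the wide peaks over background at the summit was 5.12, 5.09 and 4.98 in Het A, B and C and 5.62, 5.40 and 5.17 in KO A, B and C. Narrower peaks of the same libraries had medians of 3.52 to 4.50. Peaks of at least 3000 bp that were found in all 6 libraries had medians of 5.82 to 9.90 and reached 438 at most, whereas the highest of the wide peaks examined here reached 11.1 and only 2 passed 10. The rule left out the peaks found in all 6 libraries, so this contrast is not independent of the choice. Summits were not central: the median summit in Het C lay 42.8% of the way from the peak's middle to its edge, beside 41.5% for narrower peaks.

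They also lay close to other peaks of their own library. The median gap to the nearest neighbour was 1584 bp in Het C, 2485 bp in Het B, 2173 bp in Het A and 3280 bp in KO A. For narrower peaks the gaps were 3006, 4934, 6217 and 5766 bp in the same order. In Het C, 32.8% of wide peaks had another peak within 1000 bp, compared with 18.9% of narrower peaks.

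To show which DNA these peaks covered, 200 bases at the summit of 6 regions are given below, from the GRCm38 plus strand with CpG dinucleotides in capitals. The Rasal1 region was the widest, and its window chr5:120674987-120675186 carries 5 CpGs and a long run of alternating t and g. The Tgif2 region was wide in 3 libraries (chr2:156847879-156848078). The Zdhhc18 region had a peak in all 3 Het libraries and none in KO (chr4:133634256-133634455), and the intergenic region of chromosome 14 was the reverse case (chr14:105191070-105191269). The Krt71 region held a gene whose RNA changed (chr15:101739830-101740029), and the H1foo region held the gene with the most RNA (chr6:115944874-115945073).
Rasal1 region: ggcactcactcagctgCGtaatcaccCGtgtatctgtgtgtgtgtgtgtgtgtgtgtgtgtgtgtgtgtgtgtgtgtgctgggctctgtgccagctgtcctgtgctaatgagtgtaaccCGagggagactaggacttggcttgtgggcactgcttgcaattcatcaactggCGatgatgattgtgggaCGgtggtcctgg
Tgif2 region: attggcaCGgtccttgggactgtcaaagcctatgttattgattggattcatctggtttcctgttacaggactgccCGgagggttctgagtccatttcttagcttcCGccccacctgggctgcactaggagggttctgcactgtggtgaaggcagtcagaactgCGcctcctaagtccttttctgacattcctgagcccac
Zdhhc18 region: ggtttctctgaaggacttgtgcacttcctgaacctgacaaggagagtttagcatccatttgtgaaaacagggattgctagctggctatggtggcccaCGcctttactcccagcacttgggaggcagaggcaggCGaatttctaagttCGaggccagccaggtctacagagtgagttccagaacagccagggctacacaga
Chromosome 14 region: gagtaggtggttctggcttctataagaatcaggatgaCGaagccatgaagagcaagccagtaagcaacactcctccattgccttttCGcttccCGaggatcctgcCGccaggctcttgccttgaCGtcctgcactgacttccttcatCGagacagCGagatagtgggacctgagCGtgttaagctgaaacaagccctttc
Krt71 region: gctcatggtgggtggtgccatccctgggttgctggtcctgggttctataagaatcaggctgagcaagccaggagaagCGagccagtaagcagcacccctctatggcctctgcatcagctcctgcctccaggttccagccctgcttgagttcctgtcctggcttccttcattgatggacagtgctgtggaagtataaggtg
H1foo region: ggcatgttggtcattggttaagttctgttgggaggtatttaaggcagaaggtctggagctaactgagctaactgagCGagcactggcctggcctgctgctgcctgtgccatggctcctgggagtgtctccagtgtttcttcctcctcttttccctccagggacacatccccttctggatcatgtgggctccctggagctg

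The GC content of these 6 windows was 52.5 to 56.5%, and the number of CpGs ran from 1 at Krt71 and H1foo to 8 in the chromosome 14 region.  The whole 300 bp around the Krt71 summit was soft-masked, that is, marked as repeat sequence in the reference, compared with 51.3% at Zdhhc18 and 9.33% at H1foo.

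Sharing of wide peaks between libraries was partial and often came in pieces. Of the 2002 wide peaks of Het C, 82.6% were touched by a peak of Het B, 58.7% by Het A, 62.7% by KO A, 37.9% by KO C and 24.2% by KO B. The bases covered were fewer: Het B peaks covered 35.7% of their length, KO A 22.7%, Het A 18.2%, KO C 8.37% and KO B 5.30%. KO A thus touched and covered more of the Het C wide peaks than Het A did. In Het B, 485 of the Het C wide peaks appeared as 2 or more separate peaks, and 314 did so in Het A.

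The 290 wide peaks of KO A were shared mainly with the libraries that held the most peaks. Het C peaks touched 93.1% of them and covered 53.4% of their bases, and Het B peaks touched 79.3% and covered 36.5%. The other KO libraries touched 175 (KO C) and 116 (KO B) of the 290 and covered 17.5% and 10.2% of the bases. A wide peak of KO A was thus more often met by a peak of Het C or Het B than by one of KO B or KO C.

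**Figure D3:**
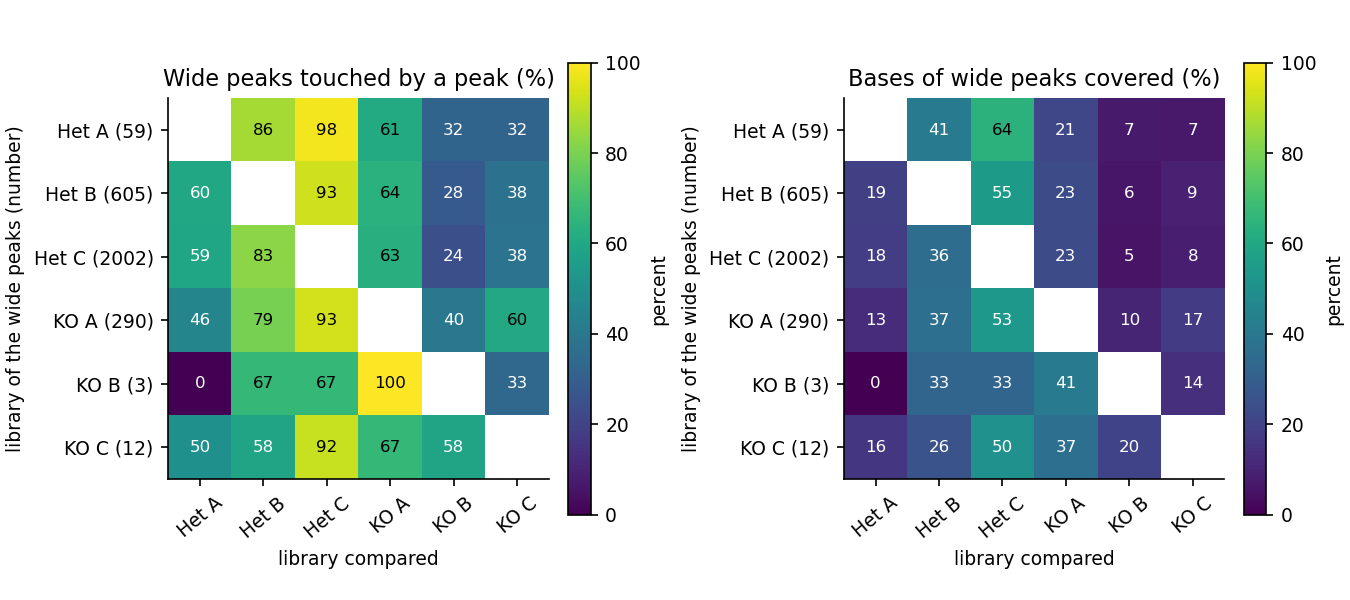
Rows are the libraries in which the wide peaks were found, with their number, and columns the libraries compared. Colours and figures give the percentage of wide peaks touched by at least 1 peak (left) and the percentage of their bases covered (right). Het C peaks cover 64.2% of the bases of the Het A wide peaks, and KO B peaks 5.30% of those of Het C.

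By genotype, 76.1% of the 2666 Het wide peaks touched a peak in at least 1 KO library, 23.9% touched none, and 6.79% touched peaks in all 3. Of the 305 KO wide peaks, 95.7% touched a peak in at least 1 Het library, 4.26% touched none, and 34.8% touched peaks in all 3. The rule left out wide peaks met in every other library, and the libraries differed in their numbers of peaks. These shares are therefore not independent of the choice, and the same shares over all peaks were not examined. Only 98 wide peaks, 78 of them from Het C, had no peak in any other library. At the other end, 974 wide peaks (32.8%) lacked a peak in exactly 1 library.

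Where wide peaks of different libraries overlapped they were joined, which gave 2744 regions covering 10.4 Mb. In 2531 regions (92.2%) a single library had the wide peak, in 201 it was 2 libraries and in 12 it was 3. Wide peaks were found in Het alone in 2439 regions, in KO alone in 228 and in both genotypes in 77. Counting peaks of any width, 2119 regions (77.2%) were occupied in both genotypes, 612 in Het alone and 13 in KO alone. All 3 Het and no KO library had a peak in 252 regions, and all 3 KO and no Het library in 1. The libraries behind these counts differed in background pileup as given above, and its part in them was not tested.

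The widest region, chr5:120668290-120679195, measured 10906 bp towards the 3' end of Rasal1, which encodes a GTPase-activating protein for Ras. Peaks covered 94.4% of it in Het C, 58.3% in Het B and 11.6% in Het A. They covered 4.24% in KO A, 4.12% in KO C and none in KO B. The highest fold there was 8.50, in Het C.

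Next came 9872 bp in an intron of Cldn14, a claudin of tight junctions (chr16:93979044-93988915), and 9169 bp in Sptbn5, a beta spectrin (chr2:120075756-120084924). Both were a single peak in Het C. The Cldn14 region was covered to 46.7% in Het B, 24.5% in Het A, 7.70% in KO B, 4.50% in KO C and not at all in KO A. The Sptbn5 region was covered to 47.5% in Het B, 34.5% in KO A, 29.0% in Het A and 13.0% in KO C, with none in KO B. KO A thus covered more of Sptbn5 than Het A did.

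Of the other 5 regions among the 8 widest, 2 had summits outside the genes of the table, 2158 bp from Gm15964 (chr16:91604370-91613381) and 3974 bp from Pip5k1c (chr10:81285948-81294888). Each of these 2 regions held 1 gene start. The region at Serpinc1, which encodes antithrombin (chr1:160978914-160987791), was most covered in KO A, at 85.3%, with 78.9% in Het C, 41.9% in Het B and 15.6% in KO B. Het A and KO C had no peak there. The region at 1700018B08Rik (chr8:121541304-121549693) was 8390 bp wide in Het C and was covered to 5.39% in KO A and to 0% in the other KO libraries.

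The region at Tgif2, a homeobox repressor of the TGF-beta pathway (chr2:156844601-156852932), was wide in Het B, Het C and KO A, at 4514, 8332 and 3488 bp. Het A had a peak of 2821 bp there, just short of the minimum, KO C one of 761 bp and KO B none. Long peaks were thus found in both genotypes at Tgif2, but not in every library of either. The gene 5430405H02Rik overlaps Tgif2 on the other strand, and Gm37790 lies inside the region.

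Other regions wide in 3 libraries showed both genotypes as well. At Edc4, an enhancer of mRNA decapping (chr8:105890582-105895849), the longest peak was 3890 bp in KO A, 3718 bp in Het B and 3497 bp in Het C, with 2235 bp in KO B, 1746 bp in KO C and none in Het A. At Tctn2, a protein of the ciliary transition zone (chr5:124616077-124621171), it was 4991 bp in KO A, 3208 bp in Het B, 3025 bp in Het C, 1632 bp in KO C and 491 bp in Het A. KO B again had none. An intergenic region had its summit 1608 bp from Cisd2 (chr3:135400680-135406112). There the longest peak was 5433 bp in Het C, 4059 bp in Het B, 3183 bp in KO A, 2614 bp in KO C and 1685 bp in KO B.

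The remaining 4 of these 8 regions included 1 at Rbm19, a ribosome biogenesis factor (chr5:120164179-120171947). The other summits lay 3224 bp from Disc1 (chr8:125048981-125056238), 295 bp from Zswim1 (chr2:164824085-164829249) and 76360 bp from Gm15762 (chr6:147791704-147797762). The Disc1 region itself held 1 gene start. The Disc1 and Zswim1 regions were wide in all 3 Het libraries, with 5592, 5897 and 7067 bp and 3390, 3146 and 5038 bp in Het A, B and C. KO A had 2553 and 2540 bp at these sites.

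**Figure D4:**
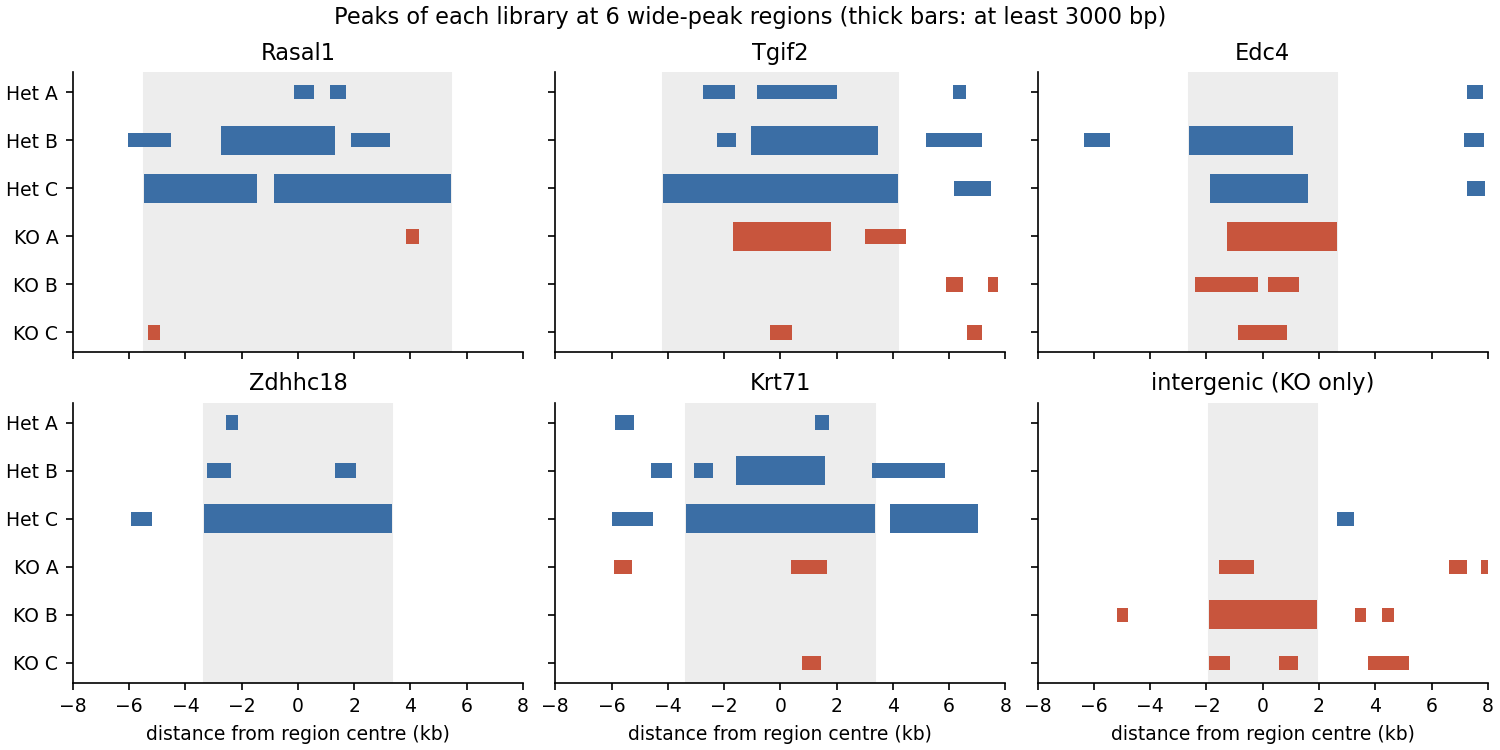
Each panel shows 1 region, with distance from its centre in kb on the x axis and a lane for each library. Bars are peaks (Het blue, KO red), thick where at least 3000 bp wide, and grey marks the region. At Rasal1 and Zdhhc18 the long peaks are in Het, at Tgif2 and Edc4 KO A has one too, and inside the grey region of chromosome 14 the KO libraries alone have peaks, with a Het C peak to its right.

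Of the 252 regions with a peak in all 3 Het and no KO library, the 8 widest ran from 5854 to 6705 bp. The widest lay in an intron of Zdhhc18, a palmitoyltransferase (chr4:133633560-133640264), where Het C covered 100%, Het B 23.5% and Het A 6.22%. The region in Draxin, a repulsive axon guidance protein (chr4:148099592-148105949), was covered to 100%, 28.7% and 14.6% in the same order. In 5 of the 8 the long peak was in Het C alone. Het B had the only long peak in the region of chr1:185671241-185677568, and both libraries had one at chr5:111685798-111691952 and chr1:184864197-184870140. The list also held regions with summits in Gm20388, 5500 bp from Acot7 and 21803 bp from Gm15637.

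The single region with peaks in all 3 KO libraries and no Het library was intergenic (chr14:105190260-105194107), with its summit 8156 bp from AC113125.1. KO B had a peak of 3848 bp with a fold of 5.40 there, KO A one of 1235 bp and KO C pieces of up to 751 bp. With 1 such region of 2744, no comparison can rest on it.

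Relative to the genes of the CabZ GV RNA table (19031 genes), 1210 regions (44.1%) had their summit inside a gene span. A gene start lay within 335 regions (12.2%), 44 of them with 2 or more, and 25 regions held a whole gene. The other 1534 summits lay outside these genes, at a median of 13924 bp from the nearest, with 640 within 10 kb and 158 beyond 100 kb. In all, 1044 genes held a summit, of which 905 held 1. By the fuller GENCODE annotation, 38.9% of wide peaks had an intronic summit, 45.1% intergenic, 10.3% promoter and 5.69% exonic, beside 42.6%, 45.6%, 7.35% and 4.43% of narrower peaks. These shares pool libraries in unequal numbers. By library, the promoter share of wide and narrower peaks was 3.39% and 6.30% in Het A, 7.44% and 7.26% in Het B, 11.2% and 8.06% in Het C, and 10.7% and 7.91% in KO A.

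Genes with the most regions were long. Gm20388, a read-through model that spans 4.43 Mb of chromosome 8, held 47, of which 25 had no other gene at the summit. Cdh13, a cadherin, held 7, and Dscam, a cell adhesion molecule of neurons, held 5. The median span of genes holding a summit was 57.7 kb, compared with 17.4 kb over all genes. Leaving Gm20388 out, 43.2% of regions lay in a gene.

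Position and sequence were not used to choose the peaks, and were compared within each library between wide and narrower peaks. The narrower peaks were all those under 3000 bp, whether or not other libraries shared them, whereas wide peaks found in all 6 libraries were left out. The differences therefore cannot separate width from sharing. In a gene span lay 42.4, 45.6 and 42.7% of wide summits in Het A, B and C and 52.8, 66.7 and 66.7% in KO A, B and C, higher than narrower peaks in 6 of 6 libraries by 6.57 ± 7.70 percentage points (SD, n = 6). An exact sign-flip permutation test (two-sided) gave p = 0.031, the smallest that 6 libraries allow, and 0.1875 after Benjamini-Hochberg adjustment over 6 measures. A single measure at the smallest p cannot pass after adjustment over 6 measures, so the correction could not decide here. It was 16.5 points in KO B and in KO C, which held 3 and 12 wide peaks, and 0.645 to 2.09 points in the other libraries.

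GC content of the 300 bp around the summit was higher than in narrower peaks by 2.09, 1.98 and 2.83 percentage points in Het A, B and C and by 2.06 points in KO A. It was 0.0636 points higher in KO C and fell by 4.63 points in KO B, so that the mean difference over all 6 libraries was 0.732 ± 2.78 (SD; exact permutation adjusted p = 0.6375). In the 4 libraries with at least 20 wide peaks, a choice made after seeing the counts, the difference was 2.24 ± 0.397 points (SD), higher in 4 of 4, with an exact p of 0.125, the smallest possible. CpG dinucleotides per 300 bp were 0.721 ± 1.15 higher (SD, n = 6, exact adjusted p = 0.4375). Repeat sequence differed by 0.0601 ± 5.21 percentage points (SD, n = 6, exact adjusted p = 0.96875).

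The share of summits within 500 bp of a gene start was 0.886 ± 3.09 percentage points higher in wide peaks (SD, n = 6, exact adjusted p = 0.6375). In Het C, the library with most wide peaks, it was 6.39% against 4.19%, and in KO A 5.86% against 3.96%. A gene with a mean of at least 1 FPKM held 10.4 ± 22.6 percentage points more of the wide summits (SD, n = 6, exact adjusted p = 0.4375), a mean set by KO B, where 3 wide peaks gave 66.7%. With KO B left out and the wide peaks chosen anew from the remaining libraries, the difference was 1.22 points.

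Between genotypes, 43.6 ± 1.79% of Het wide summits and 62.0 ± 8.03% of KO wide summits lay in a gene span (SD, n = 3 each). The exact two-sided permutation test gave p = 0.1, which is the smallest that 3 libraries against 3 allow, so no difference could pass. Narrower peaks differed in the same direction, with 40.6 to 43.5% in the Het libraries and 50.2 to 50.8% in the KO libraries. GC content was 48.4 ± 1.29% in Het and 44.7 ± 4.03% in KO (SD, n = 3 each, exact p = 0.3). The other 4 measures had exact p-values of 0.1 to 1.0 over the same libraries (n = 3 each).

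Wide regions were unevenly spread over the chromosomes, and so were peaks of any width. Chromosome 5 had 26.3 regions per 10 Mb, chromosome 1 had 21.1 and chromosome 10 had 18.4, whereas chromosome 7 had 3.85 and the X chromosome 1.40. As a share of all peaks of a chromosome, wide peaks made up 1.56% on chromosome 5, 1.22% on chromosome 1 and 1.15% on chromosomes 10 and 4, beside 0.543% on chromosome 7 and 0.221% on the X chromosome. In windows of 5 Mb, the 20 richest of 505 held 678 of the 2694 regions counted there, or 25.2%, while 144 windows held none. The richest was chr8:120000001-125000000 with 54 regions, followed by chr10:115000001-120000000 with 50 and chr5:110000001-115000000 with 48.

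These 20 windows were also rich in narrower peaks and genes. They held a median of 473 narrower peaks in Het C, beside 189 over all windows, and 107 beside 30.0 in KO B, which had 3 wide peaks. Their median number of gene starts was 58.5 against 30.0, and their median GC content 45.4% against 41.4%. As a description over the 505 windows, Spearman's rho of regions with gene starts was 0.608 and with GC content 0.669, and windows share libraries and base composition. In all 6 libraries the median number of narrower peaks was higher in these 20 windows than over all windows. The 20 windows held 45.8, 31.9 and 25.3% of the wide peaks of Het A, B and C. Of the wide peaks of KO A, B and C they held 9.66, 0 and 16.7%. The windows were ranked by these same regions, and 2439 of the 2744 regions were wide in Het alone. The shares of Het and KO wide peaks are therefore not independent of the choice of windows.

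Genes at wide peaks were not highly expressed as a group. Of the 1044 genes holding a summit, 221 (21.2%) had a mean of at least 1 FPKM, compared with 33.3% of all genes, and their median was 0.126 FPKM against 0.323 FPKM. Values are per length of the whole gene span, and genes holding a summit were longer. At 10 FPKM or more stood 55 of them (5.27%), beside 10.2% of all genes. In the 335 regions that held a gene start, 42.5% of the 379 genes had at least 1 FPKM.

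RNA of CabZ KO and Het GV oocytes was then compared by limma on log2(FPKM + 1), for the 6338 genes averaging 1 FPKM or more. Calls needed a change of over 2-fold and a limma p, adjusted by Benjamini-Hochberg, under 0.05. Fold changes on this scale understate changes of low genes. Of all tested genes 2.07% were called higher and 0.836% lower in KO. Of the 221 tested genes at wide peaks, 2 were called higher and 0 lower, so neither share was above the background. At an unadjusted p under 0.05, 25 were higher (11.3%) and 31 lower (14.0%), near the 14.2% and 12.7% of all tested genes. Their median log2 fold change was -0.04, beside -0.02 over all genes tested.

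The called genes were Krt71 and Krt73, neighbouring keratins of the inner root sheath of hair, on chromosome 15. Krt71 (chr15:101733949-101743109) stood at 0.508, 1.08, 0.649 and 0.632 FPKM in Het libraries 1 to 4 and at 3.52, 4.55, 2.36 and 3.84 FPKM in KO libraries 1 to 4. The groups did not overlap, and the log2 fold change was 1.40 ± 0.16 (SE, limma adjusted p = 0.000605). Krt73 (chr15:101793308-101802346) stood at 0.772, 0.787, 2.04 and 1.86 FPKM in Het and 12.4, 12.2, 6.94 and 7.34 FPKM in KO. Here too every KO library was above every Het library, with a log2 fold change of 2.18 ± 0.24 (SE, limma adjusted p = 0.000463). Keratin genes are a family of similar sequence, so reads may be split between copies.

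The chromatin at these genes differed in form. The Krt71 region (chr15:101735511-101742231) was covered to 100% in Het C, 58.8% in Het B and 7.63% in Het A, and to 18.9% in KO A, 9.78% in KO C and 0% in KO B. Its summit lay 3179 bp into the gene. The Krt73 region (chr15:101799999-101803071) contained the gene start and was widest in KO A, at 3073 bp, with 79.1% covered in Het C, 41.7% in Het B, 13.1% in Het A and none in KO B or KO C. The start of Krt71 lay outside that region but inside another wide region. Het C had a second wide peak there, 3.892 to 7.021 kb from the centre of the Krt71 region. RNA was higher in KO at both genes, while the long peaks were in Het at Krt71 and the long peak was in KO A at Krt73.

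The genes with the most RNA among those at wide peaks did not pass the test. H1foo, the linker histone of oocytes, stood at 1197, 932, 1494 and 1365 FPKM in Het and 1167, 1161, 1117 and 1151 FPKM in KO. The KO values lay within the Het range (log2 fold change -0.10 ± 0.14, SE, limma adjusted p = 0.72). Its region (chr6:115943890-115949220) ran over the gene start and most of the gene, with the summit 36 bp past the start. Het C covered 100% of the region, KO A 63.8%, KO B 38.0%, KO C 27.5%, Het B 20.8% and Het A none. All 3 KO libraries therefore covered more of H1foo than Het A or Het B did.

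Degs1, a desaturase of ceramide synthesis, had a mean of 152 ± 25.2 FPKM in Het and 147 ± 9.74 FPKM in KO (SD, n = 4 each, limma adjusted p = 0.88). Its promoter region (chr1:182280390-182285045) had 33 CpGs in the 300 bp at the summit and was open in Het C only, where a single peak spanned 4656 bp. Tor1a, an ATPase of the endoplasmic reticulum, had 83.3 ± 7.04 FPKM in Het and 88.5 ± 5.82 FPKM in KO (SD, n = 4 each, limma adjusted p = 0.64). Its summit was 9 bp from the gene start, with 26 CpGs (chr2:30964857-30969114). These were CpG-rich promoters, unlike the windows printed above.

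Oser1, Txndc9 and Hypk completed the 6 genes with the most RNA, with Het means of 187, 132 and 84.9 FPKM and KO means of 176, 159 and 75.2 FPKM. Their limma adjusted p-values were 0.64, 0.26 and 0.43. Hypk shares its region with Serf2 and Serinc4, so its reads are uncertain. At Oser1 (chr2:163421487-163425099) 5 libraries had a peak, KO B excepted.

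**Figure D5:**
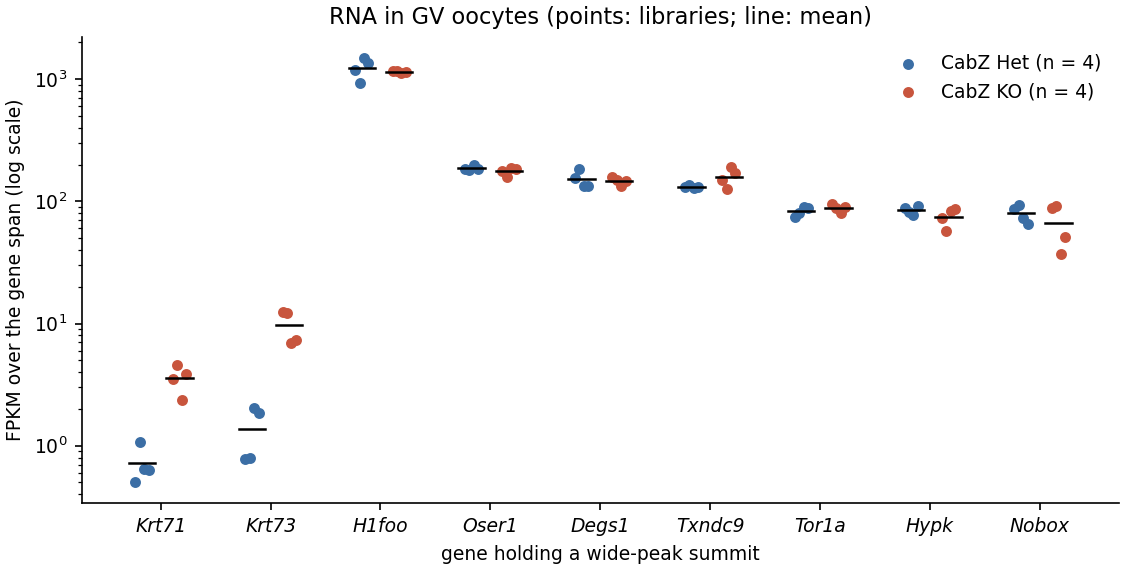
RNA levels (FPKM over the gene span, log axis) of 9 genes that hold a wide-peak summit, with a point for each library (4 CabZ Het, blue, and 4 CabZ KO, red) and a black line for the mean. Krt71 and Krt73 are higher in every KO library than in any Het library, whereas Het and KO points overlap for the other genes.

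Of gene lists relevant to oocytes, few members lay at wide peaks. Among 41 oocyte genes 2 held a summit, H1foo and Nobox (4.88%), close to 5.49% of all genes. Nobox is a homeobox transcription factor of the oocyte. It stood at 87.0, 94.0, 73.6 and 65.7 FPKM in Het and 87.9, 91.7, 37.3 and 51.5 FPKM in KO, with overlapping groups (log2 fold change -0.33 ± 0.27, SE, limma adjusted p = 0.48). Its region (chr6:43307322-43310968) was 3647 bp in Het C and was covered to 25.4% in Het B, 10.1% in KO C and 1.86% in KO A.

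Of 39 developmental transcription factors in the table, 2 held a summit, Pax2 and Pax5 (5.13%), both in introns. Pax5 (chr4:44533931-44538904) was wide in Het C and KO A, at 3068 and 3988 bp, and Pax2 (chr19:44789475-44792585) in Het C, at 3111 bp. Their RNA was at most 0.0239 FPKM in any library and was not tested. No summit fell in any of 16 genes of the two-cell stage, 9 genes of the HIRA complex and H3.3, 44 histone genes or 3 small RNA genes. In the RNA test, 3 of 8 tested two-cell genes (Ddit3, Gm5039 and Zscan4d) were called higher in KO by limma and 0 lower. The shares over all tested genes were 2.07% and 0.836%. The paper names Zscan4, Ddit3 and Gm5039 from the same RNA data, and the list was made with this known. These calls are therefore no separate support. At an unadjusted limma p under 0.05, 7 two-cell genes were higher and 0 lower, beside 14.2% and 12.7% of all tested genes. Of 38 tested oocyte genes limma called 0, with 2 higher and 3 lower at an unadjusted p under 0.05.

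Genes were also read by how their region was shared. In the 252 regions found in all 3 Het and no KO library lay 92 genes, of which 12 could be tested, with 8 higher and 4 lower in KO, 0 called by limma (1 higher and 0 lower at an unadjusted p under 0.05), and a median log2 fold change of 0.06. In the 305 regions with a wide peak in KO lay 167 genes, of which 46 could be tested, with 19 higher, 27 lower, 1 called (Krt73) and a median of -0.06. At an unadjusted p under 0.05 stood 4 higher and 7 lower. In regions wide in Het and not in KO lay 904 genes, of which 178 could be tested, with 81 higher, 97 lower, 1 called (Krt71) and a median of -0.04. At an unadjusted p under 0.05 stood 21 higher and 24 lower. Over all genes tested the median was -0.02, and 2.07% were called higher and 0.836% lower. At an unadjusted limma p under 0.05, 14.2% of all genes tested were higher and 12.7% lower.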

How the data were processed

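Peaks (GRCm38) were deposited per library. Per the study's methods, the authors aligned reads with Bowtie2 2.3, removed duplicate, mitochondrial and non-unique reads, and called peaks with MACS2 without a local background. The deposited score column, the fold enrichment ratio at the summit, the −log10 p and q values and the peak width were read as given. The deposited RNA table, from STAR 2.5.3a alignments, holds a score, reads divided by the square of the gene span with 0.01 added, from which FPKM over the gene span was restored. Other tables were not used here.

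The members and gene lists were chosen with earlier results of these data known. Summits were annotated with the table's gene spans, GENCODE and the reference sequence (pysam 0.24.0). Libraries were the unit of every exact permutation test. RNA was fitted with limma 3.58.1 in R 4.3.3 without a replicate block, on log2(FPKM + 1), with a minimum mean of 1 FPKM. In simulated data for the CabZ comparison over 6320 genes, 99% of 4-fold and 99% of 8-fold changes were recovered. The changes were placed only in genes averaging at least 5 FPKM, a level that 82 of 221 tested genes at wide peaks reached. Recovery of smaller changes, or of changes in lower genes, was not examined. Regions named in the text were the 8 widest, 8 wide in most libraries, up to 8 found in every library of 1 genotype only, and those at called genes, at the 6 genes with the highest FPKM and at list genes. A symbol shared by 2 genes was left out. The design foresaw FPKM, and the table's unit differed. Replicate numbers were not taken as pairs of RNA samples. ATAC-seq read depth is unknown, so no counting intervals were given.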

Additional observations from a re-analysis of the deposited data

Results flagged for a closer look

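Pax2 in the CabZ KO GV RNA was the only one of 22 groups of 4 libraries, over the named genes, in which 1 library stood far from the other 3. KO library 1 had 0.0147 FPKM, and the other KO libraries had 0.00534 to 0.00674 FPKM. Chance alone gives such a gap in about 1 in 20 groups, and the level is close to 0.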

How the results depend on the processing

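Counts of wide peaks depended on the rule. They were 11820 in Het and 2093 in KO at a minimum of 2000 bp, 671 and 43 at 4000 bp, and 92 and 6 where no other library had a peak. Where sharing required cover of 50% of the wide peak, KO had 462. Leaving out 1 library at a time gave 662 (without Het C) to 2619 in Het and 14 (without KO A) to 304 in KO.

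Differences between wide and narrower peaks changed sign under several settings. None passed the threshold after adjustment, which settings with 5 or fewer libraries could not have done in any case. With 6 libraries, a measure could have passed only if several measures reached the smallest p together. Taken at the peak centre, CpG fell by 0.0626 per 300 bp and repeat sequence fell by 0.475 percentage points. GC fell by 0.0835 points against peaks of 1000 bp to under 3000 bp. Against wide peaks found in all 6 libraries the differences were -2.604 points for GC and -0.840 for CpG. In the 4 libraries with at least 20 wide peaks, repeat sequence fell by 1.29 points. With 1 library left out, the wide peaks were chosen anew. The differences then ran from -0.0985 to 1.58 for GC, from -1.87 to 2.22 for repeat sequence and from -0.276 to 1.67 for gene starts. KO minus Het was -0.830 for CpG and -0.840 points for gene starts at a minimum of 2000 bp, and with 1 library left out ran from -0.649 to 0.973 and from -3.02 to 4.42. The causes were not tested.

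With a pseudocount of 0.1, limma called 4 of 221 genes at wide peaks higher and 2 lower in KO. Over all 6338 genes tested it called 227 higher and 101 lower. With no filter, 4 of 1044 were higher and 0 lower, beside 123 and 47 of all 19031 genes. At a minimum of 5 FPKM, 1 of 82 was higher and 0 lower, beside 73 and 36 of 2891. With the deposited values unchanged, 0 of 5 genes at wide peaks were called, beside 8 higher and 2 lower of 730. Leaving out 1 RNA library gave 2 higher and 0 lower each time, beside 118 to 149 higher and 47 to 71 lower over all genes tested. The log2 fold changes then ran from 1.30 to 1.54 for Krt71 and from 2.06 to 2.32 for Krt73, and with a pseudocount of 0.1 they were 2.17 and 2.82.

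With the replicate number as a block, 2 of 221 genes at wide peaks were called higher and 0 lower, beside 128 and 56 of 6338. The log2 fold changes were 1.40 for Krt71 and 2.18 for Krt73. Deviations from the group means, gene by gene, were correlated between same-numbered Het and KO RNA libraries. The correlations were 0.00783, -0.0236, -0.180 and 0.144, which show no clear pairing but cannot exclude it. With the ATAC-seq letter as a replicate block, KO minus Het for summits in a gene span was 18.5 points (exact p = 0.25). ATAC-seq read depth is unknown, and its part in the counts of wide peaks was not tested.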
